A study of Mus musculus with 2 samples.

Results

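The genes described here are 10 whose products mark maturation of dendritic cells (DCs) or carry co-stimulatory and co-inhibitory signals: Fscn1, Cd40, Cd80, Cd86, Cd274, Pdcd1lg2, Relb, Il12b, Socs2 and Cacnb3. They were taken by name, as 10 of 26981 genes listed over both libraries, and read in cells with at least 500 gene UMIs (unique molecular identifiers, 1 per captured transcript), at least 200 genes and at most 25% mitochondrial UMIs. The cells were CD45+ cells from the visceral adipose tissue (VAT; titled eWAT) of wild-type C57BL/6 mice aged 15 weeks, profiled on a BD Rhapsody cartridge with antibody tags. The NW library came from mice given normal water and the ABX library from mice given antibiotics. Apart from the treatment, the labels gave both libraries the same strain, genotype, age, tissue and cell selection. The number of mice behind each library was not given in the sources used here, and endothelial-like cells (340 in NW, 509 in ABX) and fibroblast-like cells (6 and 91) remained in the CD45+ fraction.

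Of 17662 NW barcodes 12474 passed the filters, and of 17785 ABX barcodes 12724 passed. A kept cell held a median of 5092 UMIs in NW and 3845.5 in ABX, with 6.00% and 7.05% mitochondrial UMIs. Cell indices found in both libraries numbered 371 before filtering, against 355.0 if indices were drawn at random. With 1 library per treatment there is no test between treatments. Levels are UMIs per 1000000 gene UMIs (CPM), summed over the cells of a class, with exact Poisson 95% intervals, and shares carry exact Clopper-Pearson intervals. These intervals cover counting error only and say nothing of the spread between mice. A ratio is called past 1.5-fold where it reached 1.5-fold in either direction, its exact interval left out 1, and the gene had at least 50 UMIs over both libraries.

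A DC that has taken up antigen or sensed danger stops sampling its surroundings, raises the chemokine receptor CCR7 and moves through lymph vessels to the draining node. On the way it displays CD80 and CD86, which bind CD28 and CTLA-4 on T cells, and CD40, which binds CD40L. PD-L1 (Cd274) and PD-L2 (Pdcd1lg2) bind the inhibitory receptor PD-1. Fascin (Fscn1) bundles actin in the long processes of mature DCs, RelB (Relb) is the NF-κB subunit of the non-canonical pathway downstream of CD40, and Il12b encodes the subunit shared by IL-12 and IL-23. SOCS2 (Socs2) is a feedback inhibitor of cytokine signalling, and Cacnb3 encodes an accessory β subunit of voltage-gated calcium channels.

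In GRCm38 with GENCODE M21, all 10 were protein-coding genes. Cd274 (chr19:29367455-29388095) and Pdcd1lg2 (chr19:29410919-29471161) lay next to each other in the same orientation. Cd80 (chr16:38455561-38496335) and Cd86 (chr16:36603869-36666081, minus strand) shared chromosome 16. The others were Fscn1 (chr5:142960343-142973185), Cd40 (chr2:165055627-165072948), Relb (chr7:19606217-19629438, minus strand), Il12b (chr11:44400063-44414033), Socs2 (chr10:95385362-95417180, minus strand) and Cacnb3 (chr15:98630840-98644529).

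Promoter sequence is shown for Il12b and Fscn1, the genes with the largest share of their UMIs in mature DC-like cells over both libraries together, and for the pair of ligands in which a searched motif was found, Pdcd1lg2 and Cd80. RefSeq promoter entries on GRCm38.p6 matched 6 of the 10 genes, and windows are printed 5′ to 3′ on the plus strand. Each printed window ends at the base before the RefSeq start, except that of Fscn1. The Fscn1 window was cut to 238 bases and ends at the base before its first exon in GENCODE M21. Capitals mark a motif match. Il12b is chr11:44399813-44400062, Fscn1 chr5:142960105-142960342, Pdcd1lg2 chr19:29410669-29410918 and Cd80 chr16:38458683-38458932.
Il12b: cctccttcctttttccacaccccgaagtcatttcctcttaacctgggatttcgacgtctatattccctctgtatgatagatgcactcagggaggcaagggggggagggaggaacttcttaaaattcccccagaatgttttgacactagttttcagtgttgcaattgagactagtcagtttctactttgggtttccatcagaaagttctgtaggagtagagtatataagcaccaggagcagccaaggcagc
Fscn1: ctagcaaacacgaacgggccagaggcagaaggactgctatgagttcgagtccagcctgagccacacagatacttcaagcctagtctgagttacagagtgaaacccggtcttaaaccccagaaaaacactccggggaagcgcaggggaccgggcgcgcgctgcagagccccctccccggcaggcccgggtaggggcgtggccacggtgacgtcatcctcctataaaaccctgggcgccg
Pdcd1lg2: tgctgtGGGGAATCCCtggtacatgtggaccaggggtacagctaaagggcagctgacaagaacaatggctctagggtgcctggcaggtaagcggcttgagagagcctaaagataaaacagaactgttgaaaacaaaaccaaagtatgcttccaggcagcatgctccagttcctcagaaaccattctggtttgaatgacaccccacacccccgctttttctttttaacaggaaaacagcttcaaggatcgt
Cd80: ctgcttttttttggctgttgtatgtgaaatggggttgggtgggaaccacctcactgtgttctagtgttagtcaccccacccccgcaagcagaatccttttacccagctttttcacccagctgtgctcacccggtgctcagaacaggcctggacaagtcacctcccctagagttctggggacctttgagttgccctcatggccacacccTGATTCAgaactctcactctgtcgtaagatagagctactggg
Searched on both strands were an NF-κB (κB) consensus, the AP-1 element TGANTCA and an interferon-response-like element (GAAA, any pair of bases, GAAA), which do not overlap each other in these windows. The Pdcd1lg2 window held the κB match GGGGAATCCC from -244 to -235, and the Cd80 window held the AP-1 match TGATTCA from -42 to -36. Of 32851 promoter windows, 3.90% held a κB match, 6.75% an AP-1 match and 2.98% an interferon-like match. The windows of Il12b, Fscn1, Cd274 and Cacnb3 held none of these letters.

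Mature DC-like cells formed 1 cluster of 253 cells, 180 from NW and 73 from ABX, and 14 of 14 listed mature DC markers were found in it. "Like" stands for a name given from marker genes, and the 10 genes were kept out of the variable genes and of the naming, although genes that move with them were not. At least 1 Ccr7 UMI was present in 95% of these NW cells and 90.4% of these ABX cells, and Ccl22 in 86.7% and 83.6%. The DC genes Flt3 (62.8% and 67.1%) and Zbtb46 (53.3% and 42.5%) were found in most or many of them. Genes listed as markers of other cells were found too. C1qa, a macrophage gene, was found in 31.7% and 17.8% of the cells, Cd3e in 7.78% and 8.22%, and Ms4a1 in 1.67% and 4.11%. The other DC classes were cDC1-like (1179 NW and 918 ABX cells, marked by Xcr1 and Clec9a) and cDC2-like (371 and 291 cells, led by Cd209a). The cDC2-like name rested on 4 of 10 listed markers, and the 10 summed to 3072 CPM in NW and 2522 CPM in ABX there. In the same cells the 9 monocyte markers summed to 1895 and 1529 CPM, and the 8 plasmacytoid DC markers to 353 and 312 CPM. Macrophage-like cells numbered 3199 and 3169. A further 2625 NW and 1899 ABX cells, led by Lyve1 and Fcna, carried all 11 macrophage markers but stayed unnamed because Cd209d, of the cDC2 list, was among their leading genes. B cell-like cells numbered 396 and 960.

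Mature DC-like cells held the highest level of 6 of the 10 genes among 16 classes in both libraries (Fscn1, Cd40, Pdcd1lg2, Relb, Il12b and Cacnb3), where 5.16% of 14505 genes peaked in this class in both libraries. These comparisons between classes are descriptions, since the cells were grouped by their expression. The level of Fscn1 was 4045 CPM (95% interval 3943 to 4148) in NW and 4105 CPM (3938 to 4277) in ABX mature DC-like cells. The next class stood at 109 CPM in NW, in γδT-like cells, and at 71.6 CPM in ABX, in endothelial-like cells. In NW γδT-like cells, 101 of the 105 Fscn1 UMIs came from 1 cell of 30479 UMIs that also held 18 Ccr7 and 13 Ccl22 UMIs. Without the cell with most Fscn1 UMIs in each library, γδT-like cells held 4.28 CPM in NW and 1.11 CPM in ABX. Mature DC-like cells, 1.44% and 0.574% of all kept cells, held 83.4% of all Fscn1 UMIs in NW and 72.1% in ABX.

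Cacnb3 and Il12b were as narrowly placed. The Cacnb3 level was 1163 CPM (1108 to 1219) in NW and 1046 CPM (963 to 1135) in ABX mature DC-like cells, 94.6-fold and 138-fold above the next class, cDC1-like cells. Mature DC-like cells held 95.2% of the 332 NW UMIs of Il12b and 97.4% of the 155 ABX UMIs, at 213 CPM (190 to 238) and 271 CPM (230 to 318). No Il12b UMI was found in cDC2-like, B cell-like or NK-like cells of either library, and cDC1-like cells held 4 and 2 UMIs. Against 3 counts in all cDC2-like cells of a library, used in place of the count of 0, mature DC-like cells were 189-fold higher in NW and 163-fold higher in ABX. The lower 95% bounds of the fold, from the exact interval, were 153 in NW and 131 in ABX. Il12a and Il23a, whose products pair with that of Il12b in IL-12 and IL-23, had 0 UMIs in mature DC-like cells of both libraries. In these cells 3 counts would be 2.02 CPM in NW and 5.39 CPM in ABX.

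**Figure D1:**
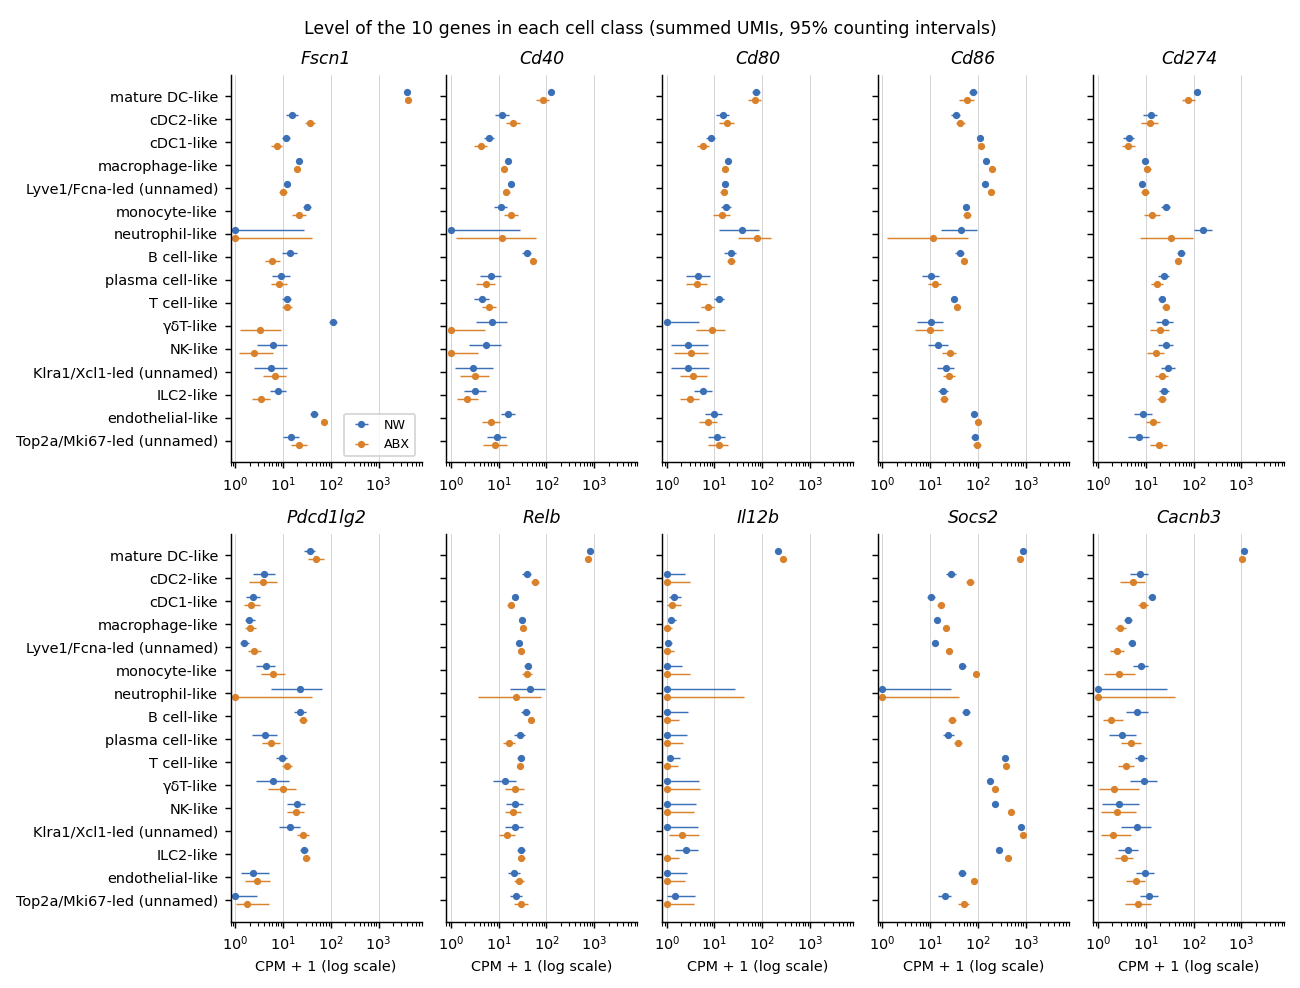
Level of each of the 10 genes (CPM + 1, log axis) by cell class, with 1 point per library (NW and ABX) and exact Poisson 95% intervals as bars. Fscn1 in mature DC-like cells sits at 4045 CPM in NW and 4105 CPM in ABX, and Cd86 is highest in macrophage-like cells, at 150 and 192 CPM.

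Relb, the transcription factor of the group, stood at 807 CPM (762 to 854) in NW and 740 CPM (671 to 816) in ABX mature DC-like cells. It was found in every class compared, at 57.0 CPM or less elsewhere, and mature DC-like cells held 37.5% and 19.5% of its UMIs. Socs2 was at 894 CPM (847 to 944) and 778 CPM (707 to 855) in mature DC-like cells, but lymphoid cells shared it. A cluster led by Klra1 and Xcl1, left unnamed because it carried NK markers and Cd3e together, held 785 CPM (733 to 840) of Socs2 in NW and 865 CPM (824 to 908) in ABX. T cell-like cells held 373 and 393 CPM of Socs2, ILC2-like cells 283 and 435 CPM and NK-like cells 226 and 493 CPM. Mature DC-like cells therefore held only 19.1% of the Socs2 UMIs in NW and 5.10% in ABX.

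The surface ligands and CD40 were more widely spread over classes. Cd40 in mature DC-like cells was 122 CPM (105 to 141) in NW and 82.7 CPM (60.5 to 110) in ABX, followed by B cell-like cells at 37.2 CPM (29.5 to 46.4) and 50.6 CPM (44.2 to 57.7). Cd80 was 74.8 CPM (61.5 to 90.1) and 68.3 CPM (48.3 to 93.7), and the interval of the 63 NW and 53 ABX neutrophil-like cells overlapped that of mature DC-like cells in both libraries. Neutrophil-like cells held 5 and 7 Cd80 UMIs, so their place in the order is not set at this depth. Cd274 was 119 CPM (102 to 137) in NW and 77.3 CPM (55.9 to 104) in ABX mature DC-like cells. NW neutrophil-like cells stood above them in point value, at 159 CPM (99.4 to 240) from 22 UMIs, with overlapping intervals, and ABX neutrophil-like cells held 3 Cd274 UMIs. B cell-like cells came next, with 53.3 CPM (43.9 to 64.0) and 47.3 CPM (41.1 to 54.1) of Cd274.

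Pdcd1lg2 stood at 35.0 CPM (26.2 to 46.0) in NW and 48.5 CPM (32.0 to 70.6) in ABX mature DC-like cells. Its intervals overlapped those of ILC2-like cells, at 26.8 CPM (21.5 to 32.9) and 29.9 CPM (25.1 to 35.4). In macrophage-like cells Pdcd1lg2 was at 0.979 and 1.04 CPM, so mature DC-like cells were 35.8-fold (20.6 to 65.0) and 46.7-fold (23.7 to 96.4) higher. For Cd274 the macrophage-like level was 8.43 and 9.72 CPM and the fold 14.1 (11.3 to 17.6) and 7.95 (5.50 to 11.3).

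Cd86 had another order. Macrophage-like cells held 150 CPM (144 to 155) in NW and 192 CPM (185 to 200) in ABX, and the Lyve1 and Fcna cluster 141 CPM (136 to 147) and 191 CPM (182 to 200). cDC1-like cells followed at 108 CPM (101 to 114) and 114 CPM (106 to 122). Mature DC-like cells ranked 6 of 16 in NW, at 78.9 CPM (65.2 to 94.5), and 7 of 16 in ABX, at 57.5 CPM (39.3 to 81.2). They held 1.56% and 0.494% of the Cd86 UMIs of the libraries. Cd86 was therefore lower in mature DC-like than in cDC1-like cells, 0.731-fold (0.599 to 0.886) in NW and 0.503-fold (0.342 to 0.717) in ABX, while its partner ligand Cd80 was 10.1-fold (7.47 to 13.8) and 14.0-fold (8.58 to 22.9) higher.

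Against cDC1-like cells, 8 of the 9 genes with enough UMIs were at least 1.5-fold higher in mature DC-like cells in both libraries, where 11.0% of 8804 genes were. The fold was 386 (318 to 472) in NW and 636 (473 to 874) in ABX for Fscn1, 39.0 (33.6 to 45.4) and 44.5 (36.1 to 55.1) for Relb, and 34.9 (24.1 to 52.0) and 23.4 (13.8 to 40.7) for Cd274. Against cDC2-like cells the count was again 8 of 9 (all genes, 11.4%), and against macrophage-like cells 8 of 9 (all genes, 12.0%). Cd86 was the exception in all 3. Against B cell-like cells it was 9 of 10 (all genes, 13.3%), again without Cd86, at folds from 1.58 for Pdcd1lg2 in NW upward. In cDC2-like cells Cd86 was 33.4 and 42.1 CPM, the lowest of the 3 DC classes, though its ABX interval overlapped that of mature DC-like cells.

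Of the 10 genes, 4 were each found in most mature DC-like cells. In NW, 96.1% of these cells had a Relb UMI, and in ABX 97.3% had one. The shares were 93.9% and 93.2% for Cacnb3, 90.0% and 89.0% for Socs2, and 89.4% and 84.9% for Fscn1. In NK-like cells, which were shallower (median 3181.5 and 3136 UMIs against 7821.5 and 7441), Fscn1 was found in 1.85% and 0.514% of cells, Cacnb3 in 0.617% and 0.514%, and Relb in 6.17% and 6.43%. Cd40 was found in 41.7% and 28.8% of mature DC-like cells, Cd274 in 45.0% and 31.5%, Cd86 in 33.9% and 30.1%, Cd80 in 23.3% and 20.5%, and Pdcd1lg2 in 36 of 180 and 17 of 73 cells. In NK-like cells Cd40 was in 1.23% and 0% of cells, Cd274 in 6.79% and 4.37%, Cd86 in 4.01% and 5.14% and Pdcd1lg2 in 6.17% and 5.40%. With every cell thinned to 1000 UMIs, which left 179 and 71 mature DC-like and 319 and 381 NK-like cells, Relb was found in 55.2% and 55.0% against 1.77% and 2.11%, and Cd40 in 10.6% and 6.59% against 0.351% and 0%. For Pdcd1lg2 the thinned shares came closer, at 3.04% and 3.92% against 1.78% and 1.74%.

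The genes were met together within single mature DC-like cells. A mature DC-like cell held UMIs of a median of 6 of the 10 genes in NW and 5 in ABX, and 4 or more were found in 90.0% and 89.0% of cells. Among cDC1-like cells, which were deeper (median 8566 and 7810 UMIs), 4 or more were found in 1.36% and 0.654%. The shares were 2.16% and 2.06% of cDC2-like cells, 0.969% and 0.694% of macrophage-like cells, 1.77% and 2.40% of B cell-like cells, and 0 of 324 and 0 of 389 NK-like cells. Of the 57 mature DC-like cells with Cd80, 57 held Relb and 52 Fscn1, beside 244 and 223 of all 253 mature DC-like cells, so these shares lay near those of the whole cluster. Cd274 was found in 35 of the 57 and in 104 of all 253, and the cells were not matched for depth.

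Levels per cell varied widely within mature DC-like cells. Fscn1 ran from 0 to 139 UMIs per 10000 in NW, with a median of 33.8, and from 0 to 121 in ABX, with a median of 31.3. The medians were 7.72 and 7.65 for Relb and 7.58 and 8.58 for Socs2, and the middle 50% of cells held 6.33 to 16.9 of Cacnb3 in NW and 6.00 to 15.1 in ABX. The medians of the other 6 genes were 0 in both libraries. The 10 cells with most Il12b UMIs carried 84.8% of them in NW, where the same share was 48.6% for Cd80 and 14.3% to 48.1% for the other genes. In ABX it was 87.4% for Il12b and 86.8% for Cd80, which lay close together. This share depends on the number of UMIs, and 10 cells are a larger part of the 73 ABX than of the 180 NW cells.

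**Figure D2:**
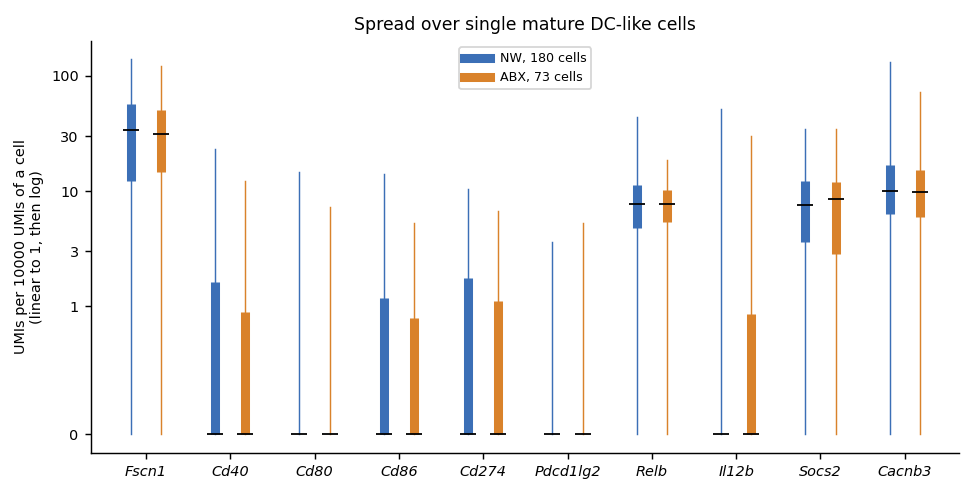
UMIs of each gene per 10000 gene UMIs in single mature DC-like cells (180 NW, 73 ABX), summarised for each library. Thin lines run from the lowest to the highest cell, thick bars from the lower to the upper quartile, and ticks mark the median. Fscn1 has medians of 33.8 and 31.3, and Il12b is at 0 in most cells and reaches 52.1 in NW and 30.4 in ABX.

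The mature DC-like cells with an Il12b UMI, 28 of 180 (15.6%) in NW and 19 of 73 (26.0%) in ABX, were set against those without one. This split was made after the levels were seen, and cells with Il12b were deeper, with a median of 10232.5 and 10191 UMIs against 7428.5 and 6838. Of the 10 cDC1 markers listed, 2 had intervals wholly above in both libraries in the cells with Il12b (Cadm1 and Gcsam), 0 were wholly below in both, and the other 8 were not apart in both. Gcsam rested on 11 UMIs from 3 NW cells and 11 UMIs from 5 ABX cells with Il12b, and the intervals leave out spread between cells. Wdfy4 stood at 0.959-fold in NW and 1.03-fold in ABX, and Naaa at 0.719-fold and 0.808-fold. Outside that list and chosen after their values were seen, Irf8 was above in both libraries and Batf3, another transcription factor of cDC1 cells, below in both, at 0.540-fold and 0.488-fold. Irf8, the transcription factor of cDC1 development, stood at 462 CPM in NW and 435 CPM in ABX against 77.2 and 88.0 CPM without. The adhesion gene Cadm1 was 140 and 327 CPM against 21.6 and 46.8 CPM. Xcr1 was 68.1 and 41.5 CPM against 14.1 and 5.50 CPM, on few UMIs. Across 4892 genes, the interval of the cells with Il12b lay wholly above the other in both libraries for 3.09% and wholly below for 2.82%.

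Of the other 9 genes only Socs2 had intervals apart in both libraries. It was lower in the cells with Il12b, at 566 CPM (481 to 662) in NW and 487 CPM in ABX, against 970 and 933 CPM in the cells without. Aldh1a2, which makes retinoic acid, was lower as well, at 287 and 347 CPM against 1293 and 784 CPM. Cd80 was 147 and 109 CPM in cells with Il12b against 58.1 and 46.8 CPM without, and the ABX intervals overlapped. Fscn1, at 1.00-fold and 1.47-fold, and Relb, at 0.934-fold and 1.10-fold, were not apart in both libraries. Of the 14 mature DC markers, 3 were above in both libraries and 3 below in both. Tmem123 (0.895-fold in NW and 0.805-fold in ABX), Apol7c (0.722-fold and 0.284-fold) and Anxa3 (0.749-fold and 0.741-fold) were lower with Il12b. Zmynd15, Bcl2l14 and Mreg were higher, at 2.58-fold, 3.41-fold and 1.76-fold in NW and 4.59-fold, 5.11-fold and 2.14-fold in ABX.

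**Figure D3:**
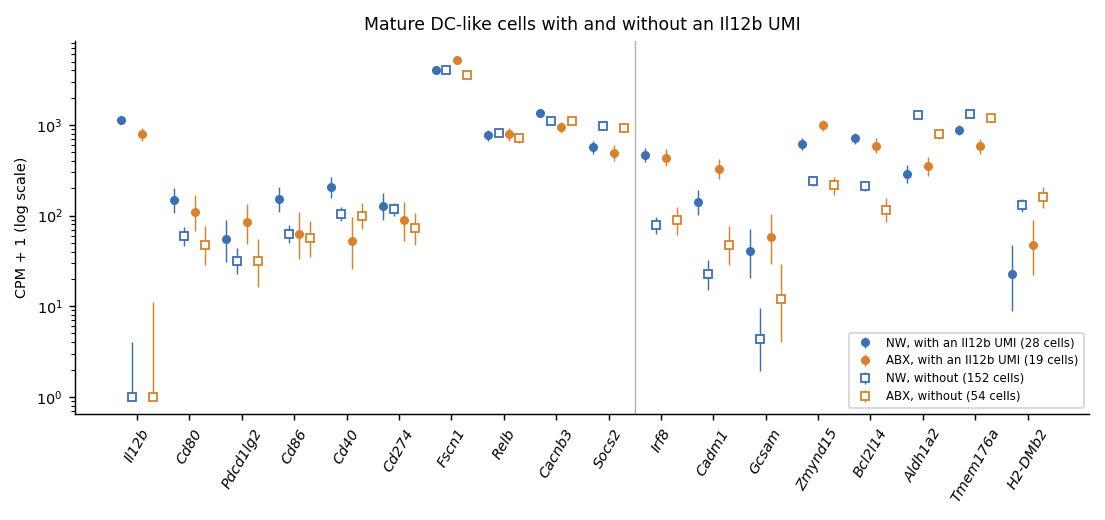
Level (CPM) of selected genes in mature DC-like cells with and without an Il12b UMI, for each library, with exact Poisson 95% intervals. Irf8 is at 462 and 435 CPM with Il12b and at 77.2 and 88.0 CPM without, and Socs2 is at 566 and 487 CPM with it and at 970 and 933 CPM without.

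Between the libraries, the share of mature DC-like cells in the cluster fitted here differed more than their summed level of the 10 genes. They were 10.4% (9.01 to 11.9) of the 1730 NW DC-like cells and 5.69% (4.49 to 7.11) of the 1282 ABX DC-like cells, a ratio of 0.547. Of all kept cells they were 1.44% (1.24 to 1.67) and 0.574% (0.450 to 0.721), a ratio of 0.398. The 10 genes summed in mature DC-like cells came to 7551 CPM in NW and 7275 CPM in ABX, a ratio of 0.964 (0.929 to 0.999). Fscn1 alone made up 4045 and 4105 CPM of these sums, so they say little of the genes at low levels. With cells taken by markers per cell in place of the cluster, which gave 1343 NW and 1045 ABX cells, mostly from other classes, the order turned, with a log10 ratio of the share of -0.011 (-0.035 to 0.013) and a log2 ratio of the summed level of -0.54. Summed over all cells, Fscn1 was 95.6 CPM in NW and 52.1 CPM in ABX, Cacnb3 28.7 and 12.9 CPM and Il12b 4.41 and 2.55 CPM. Fewer mature DC-like cells, the capture of cells in the ABX library and the mice sampled cannot be told apart with 1 library each.

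Within mature DC-like cells 1 of the 10 genes was past 1.5-fold lower in the ABX library and 0 were past it higher, while 4.33% of 4893 genes were lower and 4.01% higher. That gene was Cd274, at 119 CPM in NW and 77.3 CPM in ABX (0.652-fold, 0.455 to 0.914). Cd40 was near the threshold at 0.678-fold (0.479 to 0.941), and without the cell with most Cd40 UMIs in each library it was 0.523-fold (0.349 to 0.763). The other ratios ran from 0.729 (0.477 to 1.09) for Cd86 to 1.38 (0.836 to 2.25) for Pdcd1lg2. Fscn1 was 1.01-fold (0.967 to 1.07), Relb 0.918-fold (0.819 to 1.03) and Il12b 1.27-fold (1.04 to 1.55). Without the cell with most Il12b UMIs in each library, the Il12b interval took in 1 (1.25-fold, 0.994 to 1.57). The median log2 ratio was -0.14 for the 10 genes and -0.01 for all genes measured in these cells.

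Levels of some listed markers of other cells and of listed dissociation genes differed between the libraries in these same cells. The summed level of 11 macrophage markers was 2160 CPM in NW and 1292 CPM in ABX mature DC-like cells, with 5 of the 8 measured past 1.5-fold lower in ABX (C1qa, C1qb, C1qc, Apoe and Pf4). The 9 B cell markers summed to 22.9 and 191 CPM, with Cd79a at 4.72 and 82.7 CPM, and the 10 T cell markers to 127 and 126 CPM. The 12 genes of the dissociation list summed to 5922 and 4401 CPM, and 5 of the 12 were past 1.5-fold lower in ABX, with Egr1 at 151 and 30.6 CPM and Fos at 316 and 137 CPM. The source of these transcripts was not tested, nor was the part of these differences in the ratios of the 10 genes.

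**Figure D4:**
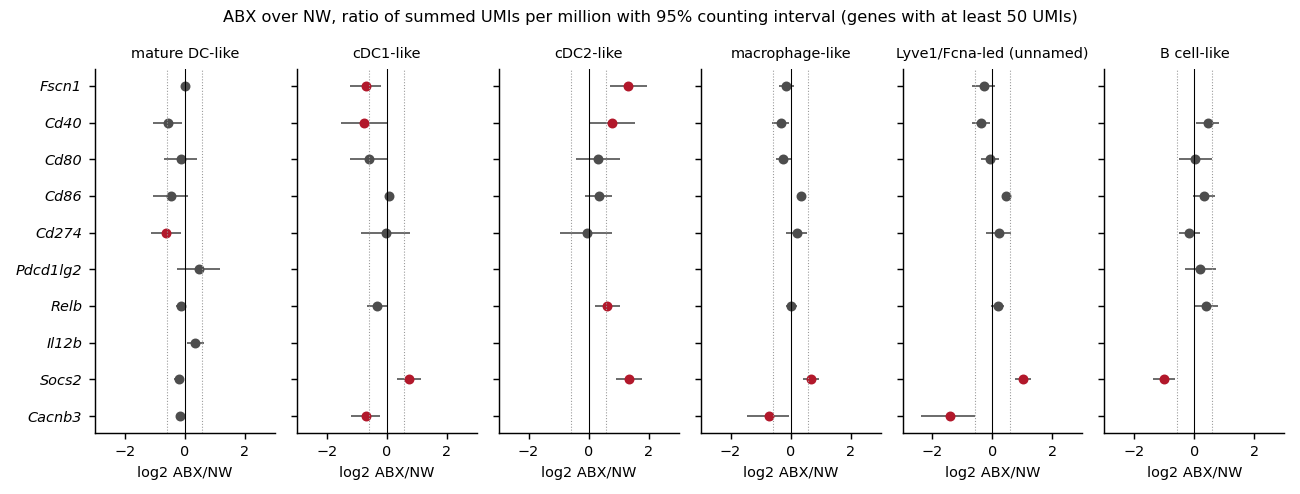
Ratio of ABX to NW (log2) for the 10 genes in mature DC-like, cDC1-like, cDC2-like, macrophage-like and B cell-like cells and in the Lyve1 and Fcna cluster, with exact 95% intervals, for genes with at least 50 UMIs, with dotted lines at 1.5-fold and red points for ratios past it. In mature DC-like cells Fscn1 is at 0.02 and Cd274 at -0.62, while Fscn1 and Socs2 in cDC2-like cells are at 1.32 and 1.34.

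The other DC classes differed from mature DC-like cells and from each other. In cDC2-like cells 4 of the 7 genes measured were past 1.5-fold higher in ABX and 0 lower, where 3.68% of 8053 genes were higher and 2.27% lower. Fscn1 was 14.6 CPM in NW and 36.5 CPM in ABX (2.50-fold, 1.65 to 3.81), and its UMIs came from 22 and 19 cells. Socs2 was 26.7 and 67.5 CPM (2.53-fold, 1.87 to 3.44), Cd40 10.9 and 18.8 CPM (1.73-fold, 1.02 to 2.94) and Relb 37.2 and 57.0 CPM (1.53-fold, 1.15 to 2.04). Without the cell with most UMIs of each gene in each library, these 4 ratios were 2.57, 2.61, 1.77 and 1.57. The shares of cDC2-like cells with a Fscn1 UMI were 5.93% and 6.53%, and 3 ABX and 0 NW cells held at least 10 Fscn1 UMIs. Ccr7 had 15 UMIs in cDC2-like cells of each library, and Ccl22 40 and 10. Markers of other cells moved with these genes in cDC2-like cells. The 9 B cell markers summed to 89.3 CPM in NW and 210 CPM in ABX, with 4 of 4 measured past 1.5-fold higher, the 10 T cell markers to 204 and 304 CPM, with 3 of 7, and the 8 NK markers to 281 and 396 CPM, with 3 of 6. The 7 proliferation genes summed to 209 and 422 CPM, with 6 of 7 past it higher, and the 12 dissociation genes to 11813 and 8810 CPM, with 3 of 12 past it lower. Their part in the cDC2-like ratios was not tested.

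In cDC1-like cells 3 of the 8 genes measured were past 1.5-fold lower in ABX and 1 higher, where 1.65% of 10014 genes were lower and 2.23% higher. The lower genes were Fscn1, at 10.5 and 6.46 CPM (0.616-fold, 0.424 to 0.881), Cd40, at 5.30 and 3.16 CPM (0.596-fold, 0.345 to 0.997), and Cacnb3, at 12.3 and 7.61 CPM (0.619-fold, 0.440 to 0.862). Without the cell with most Cd40 UMIs in each library the interval of Cd40 took in 1 (0.669-fold, 0.373 to 1.16). These levels were 12.3 CPM or less, far under those of mature DC-like cells. Ccl22, another gene of mature DCs, had 186 UMIs in NW and 35 in ABX cDC1-like cells. Cd86 was 108 and 114 CPM. Socs2 was higher, at 9.29 and 15.5 CPM (1.67-fold, 1.25 to 2.22).

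In macrophage-like cells 1 of the 8 genes measured was past 1.5-fold higher in ABX and 1 lower, where 4.07% of 11310 genes were higher and 1.95% lower. Socs2 was 13.1 CPM in NW and 21.0 CPM in ABX (1.60-fold), and Cacnb3 3.21 and 1.93 CPM (0.601-fold). In the Lyve1 and Fcna cluster Socs2 was again past it higher, at 2.02-fold, and Cacnb3 lower, at 0.371-fold, where 6.39% of all genes were higher and 1.56% lower. Cacnb3 was at 1.73 and 1.45 CPM in NK-like cells, and mature DC-like cells held 80.0% and 74.0% of its UMIs. Ccr7 and Ccl22 UMIs together numbered 149 and 74 in macrophage-like cells and 142 and 39 in the Lyve1 and Fcna cluster. The part of mature DC-like transcripts in these Cacnb3 ratios was not tested. Cd86 was higher in ABX by less than 1.5-fold, at 1.28-fold (1.22 to 1.36) in macrophage-like cells and 1.35-fold in the Lyve1 and Fcna cluster. Relb was 30.3 and 30.9 CPM in macrophage-like cells.

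Among macrophage clusters, Fscn1 and Cd274 each stood higher in 1 of the clusters. A cluster led by Ccl12, Cx3cr1 and Il1b held Fscn1 at 61.3 CPM in NW and 46.8 CPM in ABX, 5.54-fold (4.65 to 6.60) and 5.55-fold (4.46 to 6.93) above the other macrophage clusters together, with the Lyve1 and Fcna cluster among them. Fscn1 was the 1 gene of 7 measured that was past 1.5-fold higher there in both libraries, and 0 were lower, where 4.51% of 10890 genes were higher and 1.86% lower. Only 2 of its NW cells and 1 of its ABX cells held at least 10 Fscn1 UMIs, and its Ccr7 UMIs numbered 5 and 11. The cluster led by the interferon-stimulated genes Ifit3 and Rsad2 (61 and 60 cells) held Cd274 at 27.7 and 25.8 CPM, 3.63-fold and 2.87-fold above the others, on 13 and 8 UMIs. Cd274 was the 1 gene of 7 past it higher, and 0 were lower, where 1.99% of all genes were higher and 0.588% lower. These contrasts between clusters describe groups made from the same cells.

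In B cell-like cells 1 of the 7 genes measured was past 1.5-fold lower in ABX and 0 higher, where 8.58% of 8927 genes were lower and 2.02% higher. It was Socs2, at 56.1 CPM in NW and 27.8 CPM in ABX (0.495-fold, 0.382 to 0.642). The class joined the main B cell cluster with a small cluster led by the precursor genes Vpreb3 and Vpreb1 (51 NW and 22 ABX cells), where Socs2 was 232 and 114 CPM. In the main cluster alone the ratio turned round, with Socs2 at 14.0 and 25.3 CPM (1.81-fold, 1.15 to 2.94). In the whole class, Cd40 was 37.2 and 50.6 CPM (1.36-fold, 1.05 to 1.78), Relb 35.3 and 46.6 CPM (1.32-fold, 1.01 to 1.74) and Cd86 41.0 and 51.1 CPM (1.25-fold, 0.969 to 1.61). Cd80 and Pdcd1lg2 differed by less, at 1.02-fold and 1.14-fold. These ratios of Cd40, Relb, Cd86, Cd80 and Pdcd1lg2 take in the precursor cluster. Its share of the class differed between libraries, and its part in these ratios was not tested.

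Within the main B cell cluster, cells with a UMI of Zbtb32 or Bhlhe41, genes of B-1 cells, were set against the rest after the levels were seen. They numbered 111 in NW and 310 in ABX, were deeper (median 6867 and 6478.5 UMIs against 2934.5 and 2821.5) and held less Ighd (256 and 305 CPM against 1494 and 1493). Cd80 was 40.3 CPM (27.6 to 56.9) in NW and 31.8 CPM (24.7 to 40.3) in ABX in them, against 13.1 CPM (6.75 to 22.8) and 10.9 CPM (6.99 to 16.2) in the rest. Cd274 was 75.6 and 62.1 CPM against 54.4 and 35.5 CPM, with overlapping intervals in NW. Cd86 did not stand apart, at 44.1 and 56.5 CPM against 51.2 and 48.2 CPM.

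Across classes, Socs2 was the gene that most often differed between libraries. It was past 1.5-fold higher in ABX in 10 of the 15 classes with enough UMIs and past it lower in 1, with a median ratio of 1.60. Over all genes in those 15 classes, 4.31% of the values were past 1.5-fold higher and 3.67% lower. The ratio was 2.18 in NK-like cells (226 and 493 CPM), 1.54 in ILC2-like cells (283 and 435 CPM) and 1.05 in T cell-like cells (373 and 393 CPM). In monocyte-like cells Socs2 was 46.4 and 90.1 CPM, and 62 of its 156 ABX UMIs came from 1 cell. Without the cell with most UMIs in each library the monocyte-like ratio was 1.40 (1.06 to 1.83). Socs2 was abundant in lymphoid cells. The summed T cell markers were also higher in ABX in cDC1-like, cDC2-like and macrophage-like cells and in the Lyve1 and Fcna cluster. Among them Foxp3 was past 1.5-fold lower in macrophage-like cells and in the Lyve1 and Fcna cluster. In mature DC-like cells the T cell markers summed to 127 and 126 CPM, and no sum is given for monocyte-like cells. The 10 T cell markers summed to 51.5 CPM in NW and 70.9 CPM in ABX in cDC1-like cells, 102 and 151 CPM in macrophage-like cells and 80.6 and 136 CPM in the Lyve1 and Fcna cluster, beside the cDC2-like values given before. Their part in the Socs2 ratios was not tested. Cacnb3 was past 1.5-fold lower in ABX in 4 of 5 classes, where 2.51% of the values of all genes were, and Cd86 past it in neither direction in any of 14. Each class shares its library with the others, so these counts are not independent of one another. Among the classes with lower Cacnb3, Ccr7 and Ccl22 UMIs together numbered 222 and 55 in cDC1-like cells. In T cell-like cells they numbered 180 and 262. The part of mature DC-like transcripts in the Cacnb3 ratios was not tested.

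**Figure D5:**
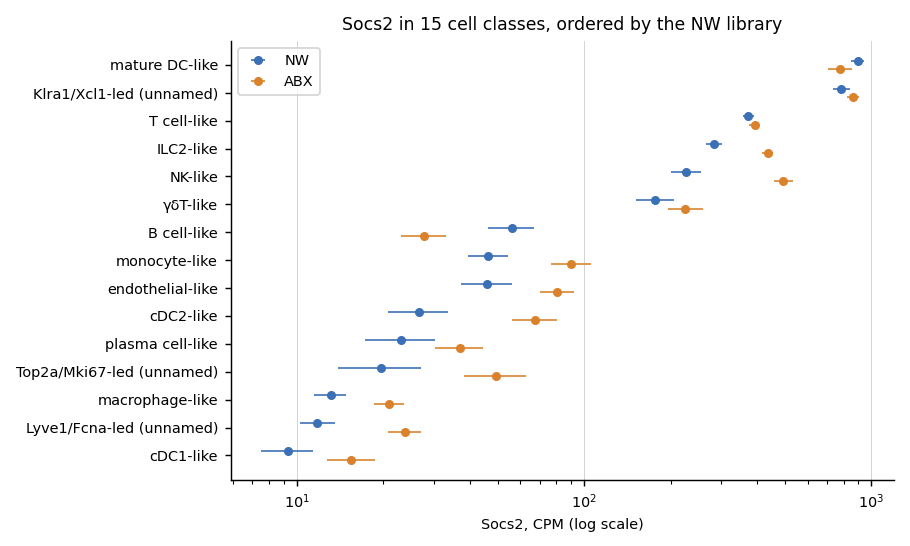
Level of Socs2 (CPM, log axis) in the 15 classes with enough UMIs, for the NW and ABX libraries, with exact Poisson 95% intervals. NK-like cells go from 226 CPM in NW to 493 CPM in ABX, mature DC-like cells stand at 894 and 778 CPM, and B cell-like cells at 56.1 and 27.8 CPM.

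The pathways around the 10 genes were read from fixed lists in mature DC-like cells. Of the 20 genes for NF-κB proteins and CD40 signalling, 12 were highest in mature DC-like cells in both libraries, among them Traf1, a CD40 adaptor (896 CPM in NW and 951 CPM in ABX), Rel (396 and 316 CPM), Nfkb2, the partner of RelB (285 and 297 CPM), and Map3k14, the kinase of the non-canonical pathway (219 and 237 CPM). Of the 19 with enough UMIs, 0 were past 1.5-fold between libraries in either direction. Of the 11 genes listed for migration and cytoskeleton of mature DCs, 11 were highest in mature DC-like cells in both libraries and 0 were past 1.5-fold. That list was chosen for this state and holds the naming marker Ccr7, so the first count was largely set by the choice. Over all genes, 5.16% of 14505 were highest in this class in both libraries. Ccr7 was 2128 and 1973 CPM.

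Of the regulatory genes of mature DCs, 4 of 9 were highest there in both libraries, among them the naming markers Cd200 and Il4i1. Of the 6 measured, 1 was past 1.5-fold lower in ABX. This was Aldh1a2, at 1104 and 633 CPM (0.573-fold, 0.509 to 0.643). The other ligands for T cell receptors had 5 measured members, none past 1.5-fold, with the ICOS ligand Icosl at 326 and 487 CPM (1.49-fold, 1.28 to 1.74). Of the 6 measured cytokine and chemokine genes, Il15 (0.655-fold, 0.417 to 0.997) and Il1b (0.233-fold, 0.0909 to 0.503) were past it lower. Ccl22, which draws CCR4-bearing T cells, was 2381 and 1736 CPM (0.729-fold, 0.678 to 0.783), and Ccl17 494 and 358 CPM. Of 5 measured interferon-stimulated genes 0 were past 1.5-fold. Among signalling genes of the SOCS and STAT5 list 1 of 7 was past it lower (Socs4), and Csf2rb, a GM-CSF receptor chain, was 840 and 1086 CPM. These counts past 1.5-fold stand beside the 8.34% of all genes past it in either direction in these cells. In the other lists a smaller share was highest in mature DC-like cells in both libraries. The counts were 4 of 13 other ligands, 2 of 15 cytokine and chemokine genes and 4 of 12 interferon-stimulated genes. In the SOCS and STAT5 list it was 1 of 12, and in the calcium channel list 1 of 8.

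The genes with the most similar levels over classes were found by Pearson correlation of log levels over 32 points, 16 classes in each of 2 libraries. The points of a library share its depth, and each r is a description. Il12b was closest to Scin, an actin-severing protein (r = 0.996), and Relb to Il4i1 (r = 0.959). Cacnb3 was closest to Gm13546 (r = 0.988) and Fscn1 to Slc4a8 (r = 0.954). Among ligands, Cd80 was closest to Csf2rb2 (r = 0.890), Cd86 to Ctnnd1 (r = 0.902), Pdcd1lg2 to Rasa2 (r = 0.891), Cd40 to Stoml1 (r = 0.883) and Cd274 to Hivep1 (r = 0.804). Socs2 was closest to H2-K1, a class I MHC heavy chain (r = 0.930). Flrt3 was among the 3 nearest genes of Relb, Il12b and Cacnb3.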

How the data were processed

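The authors ran the BD Rhapsody WTA analysis pipeline (version 1.8, per the study's methods) against GRCm38 (mm10 per the labels), and the deposited values are whole-number UMI counts per barcode and gene, with antibody tags beside them. The submitters' processing notes list R 3.6.0 and Seurat 3.0.1. Barcodes with under 500 gene UMIs, under 200 genes or over 25% mitochondrial UMIs were left out, as in the study. The files list 10 antibodies, of which the 8 named in the methods were used. mRNA (2000 variable genes, 1995 after the 10 genes were taken out, 30 principal components) and antibody data were joined by weighted nearest neighbours in Seurat 5.3.0 under R 4.3.3, at resolution 0.6, giving 28 clusters, of which 23 were named. A name needed at least 3 listed markers, each in at least 10% of the cells. Naming rules were adjusted after the clusters were seen, with the marker lists unchanged. Predicted doublets (Scrublet in scanpy 1.11.5) were 2.76% of NW and 2.55% of ABX cells at 1 shared threshold and were kept in the main values, because the threshold chosen by the caller itself marked 1 ABX cell.

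Counts were summed per class and library and expressed as CPM. Classes with at least 50 cells in each library were compared, 16 in all. Between genes, levels were not compared, since UMIs carry no length correction. The intervals treat summed UMIs as Poisson counts, so they cover counting error only, at 95%, and leave out spread between cells and mice. Exact ratio intervals condition on the summed UMIs and were tested on simulated Poisson counts. Those counts held no added spread between cells, so the test says nothing of how the intervals do under such spread. The rule for named genes was all 10 members, the 3 genes most alike to each (genes with at least 200 UMIs, prior of 10 CPM), and listed genes past 1.5-fold. The genes, lists and splits were chosen with earlier results of these data known. Positions came from GENCODE M21 and promoters from RefSeq. The antibiotics in the label are unnamed. Alternatives covered clustering, cell filters, doublets, per-cell marker gates, the UMI minimum and single cells left out.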

Additional observations from a re-analysis of the deposited data

Results flagged for a closer look

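Values are log2 ratios of ABX over NW with 1 library each, and the differences between classes were not tested. Several of the 10 genes went past 1.5-fold in opposite directions in different classes. Fscn1 was higher in ABX in cDC2-like (1.32) and endothelial-like cells (0.71) and lower in cDC1-like (-0.70) and γδT-like cells (-5.62). In γδT-like cells the NW value rested on 1 cell with 101 of the 105 UMIs. In cDC1-like cells the Fscn1 ratio was 0.413 (0.254 to 0.651) without the cell with most UMIs in each library.

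Cd40 was higher in ABX in cDC2-like (0.79) and monocyte-like cells (0.77) and lower in cDC1-like cells (-0.75). Without the cell with most Cd40 UMIs in each library, the monocyte-like ratio was 1.61 with an interval of 0.923 to 2.79, and the cDC1-like interval also took in 1. Relb was higher in cDC2-like cells (0.62) and lower in plasma cell-like cells (-0.78).

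Socs2 was higher in ILC2-like (0.62), NK-like (1.12), cDC1-like (0.74), cDC2-like (1.34), endothelial-like (0.81), macrophage-like (0.68), monocyte-like (0.96) and plasma cell-like cells (0.67). It was also higher in the Lyve1 and Fcna cluster (1.01) and in a cluster led by Top2a and Mki67 (1.33), and lower in B cell-like cells (-1.01). In the main B cell cluster without the precursor cluster Socs2 was 1.81-fold higher.

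Barcodes that the filters removed still held UMIs of the 10 genes, 549 in NW and 659 in ABX, with Cd86 (156 and 194) and Socs2 (101 and 168) among them.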

How the results depend on the processing

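No paired analysis was possible because each treatment had 1 library. Of 37 alternative values for counts, shares and sums, 30 stayed within the counting interval of the value reported or, for counts, within 1.5 times of it, and 1 changed sign. For single genes 115 of 130 did so and 12 changed sign, in each case from a reported ratio under 1.5-fold. The log2 ratio of the 10 genes summed in mature DC-like cells, reported as -0.05, was 0.0094 with 50 principal components, -0.11 without predicted doublets, -0.15 without the 5 cells with most UMIs of these genes in each library, and -0.54 when cells were taken by markers per cell. That gate took 1343 NW and 1045 ABX cells, mostly from other classes, and holds 250 of the 253 cells. With it the log10 ratio of the mature DC share of DC-like cells was -0.011, against -0.26 reported and -0.32 to -0.011 over all alternatives, and 4 genes rather than 8 were highest in mature DCs over both libraries. With genes from 10 UMIs, 679 rather than 408 genes were past 1.5-fold in mature DC-like cells. A stricter gate chosen after seeing the data (Ccr7, Ccl22 and 5 markers) took 162 and 58 cells. With 73 ABX cells, ratios of Cd80, Cd86 and Pdcd1lg2 under 1.5-fold could not be told from 1 at this depth.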

Other observations

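The receptors for these ligands were held by other classes of the same libraries. Cd28, the receptor of CD80 and CD86, was highest in the T cell-like cluster led by Cd4, at 312 CPM in NW and 269 CPM in ABX. Ctla4, the inhibitory receptor for the same ligands, was highest in the Foxp3-led T cell-like cluster, at 577 and 283 CPM. Pdcd1, which encodes PD-1, was highest in γδT-like cells, at 664 and 548 CPM, and stood at 265 and 173 CPM in ILC2-like cells. Cd40lg was 86.1 and 67.5 CPM in the Cd4-led cluster, and the IL-12 receptor chain Il12rb2 was 89.9 and 94.7 CPM in NK-like cells. Rgmb, which encodes a binding partner of PD-L2, was the one receptor gene of this list highest in mature DC-like cells, at 28.3 and 44.9 CPM.

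Cacnb3 encodes 1 subunit of a channel, and few UMIs of other calcium channel genes were found in mature DC-like cells. Of the 10 listed genes, Cacnb1 stood at 28.3 and 16.2 CPM and Cacna1s at 26.3 and 37.7 CPM, 3 were at 0 UMIs in both libraries, and the rest were at 8.99 CPM or less.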
